A study of Mus musculus with 9 samples.

Results

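The unfolded protein response (UPR) and the folding machinery of the endoplasmic reticulum (ER) were followed in intestinal epithelial cells (IECs) after activation of natural killer T (NKT) cells in vivo. They were represented by 35 genes, taken as the rows of the deposited tables whose Ensembl identifiers map to a list of sensors, transcription factors, chaperones and quality control factors of the ER. All 35 had a row among the 29288 genes of the count table, and all 35 passed the filter on low counts. RNA came from live EpCAM+ Ter119- CD31- CD45- cells, sorted from the crypt fraction of proximal small intestine, and each library was 1 female wild-type C57BL/6J mouse. Control mice received PBS and were sampled at 18 h (n = 3). Treated mice received 2 µg of αGalCer intraperitoneally, a glycolipid that CD1d presents to NKT cells, and were sampled at 18 h (18h-αGal, n = 3) or at 72 h (72h-αGal, n = 3). As the controls were labelled 18 h, treatment and time of sampling cannot be told apart in the comparison of 72h-αGal with control.

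The UPR is read out by sensors in the ER membrane. IRE1 splices the Xbp1 transcript, ATF6 is cut to release a transcription factor, and PERK phosphorylates eIF2 alpha, which slows translation but favors that of ATF4. Their targets enlarge the capacity of the ER to fold, export and degrade proteins, and secretory cells of the crypt, such as Paneth and goblet cells, rely on them. Splicing of Xbp1, cleavage of ATF6 and phosphorylation of eIF2 alpha do not show in counts per gene, so the values below are transcript levels of the sensors and of their target genes.

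Because ATF6 and XBP1 are known to act through the ER stress response element (ERSE), promoters of the members were searched for it first. The ERSE was written as CCAAT and CCACG separated by 9 bases, read on both strands, in the window from 250 bases before to 50 after the annotated start (RefSeq, GRCm38.p6). Of the 35 members, 30 had a promoter in that table, and 9 of the 30 (30%) held an ERSE, as against 37 of 27025 genes of the table (0.137%) and 22 of the 11654 genes among them that were tested (0.189%). The matches are printed below from 5′ to 3′ in the direction of transcription, with 10 flanking bases on each side in lower case and the element in capitals. Elements that begin with CGTGG are the same letters on the other strand. The first 7 genes listed were higher in 18h-αGal than in control, and Syvn1 and Derl3 were not called.
Hspa5, chr2:34772015-34772053, plus strand: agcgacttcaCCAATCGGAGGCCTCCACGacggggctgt
Hsp90b1, chr10:86705523-86705561, minus strand: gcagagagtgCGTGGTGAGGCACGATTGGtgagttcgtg
Hsp90b1, chr10:86705628-86705666, minus strand: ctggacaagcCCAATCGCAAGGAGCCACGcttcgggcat
Calr, chr8:84847065-84847103, minus strand: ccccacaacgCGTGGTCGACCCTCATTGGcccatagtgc
Canx, chr11:50325790-50325828, minus strand: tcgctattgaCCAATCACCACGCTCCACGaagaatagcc
Pdia6, chr12:17266481-17266519, plus strand: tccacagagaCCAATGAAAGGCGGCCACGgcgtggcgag
Dnajc3, chr14:118937817-118937855, plus strand: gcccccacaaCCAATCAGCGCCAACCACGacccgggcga
Creld2, chr15:88819510-88819548, plus strand: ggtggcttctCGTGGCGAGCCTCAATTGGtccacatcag
Syvn1, chr19:6046522-6046560, plus strand: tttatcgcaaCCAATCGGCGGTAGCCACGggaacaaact
Derl3, chr10:75893232-75893270, plus strand: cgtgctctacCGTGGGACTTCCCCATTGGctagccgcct

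All 10 elements lay upstream of the start, with their nearest base between 25 bases (Syvn1) and 193 bases (the farther element of Hsp90b1) away from it. An ERSE was found in 7 of the 13 members with a promoter that were called higher at 18 h (53.8%) and in 2 of the 17 that were not (11.8%). Both shares are descriptions of these windows, since the members were chosen as known genes of the pathway. Outside the members, 13 tested genes had an ERSE, and 1 of them, Spats2l, was called higher in 18h-αGal (log2 fold change 1.95 ± 0.29, adjusted p = 0.00148 by edgeR). Of these 13, 7 had positive and 5 negative log2 fold changes (median 0.16). Over all genes tested, 3.27% were called higher. ERSE-II, written as ATTGG, 1 base and CCACG, was found in Dnajb11 and Herpud1 and in 12 of 27025 genes (0.0444%). The composite element of ATF4 and C/EBP factors, TTGCATCA, was found in Herpud1 alone among the members and in 1.03% of all genes. The XBP1 element TGACGTGG was in none of the 30 windows and in 0.714% of all genes, which says only that these letters are not in these windows.

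**Figure D1:**
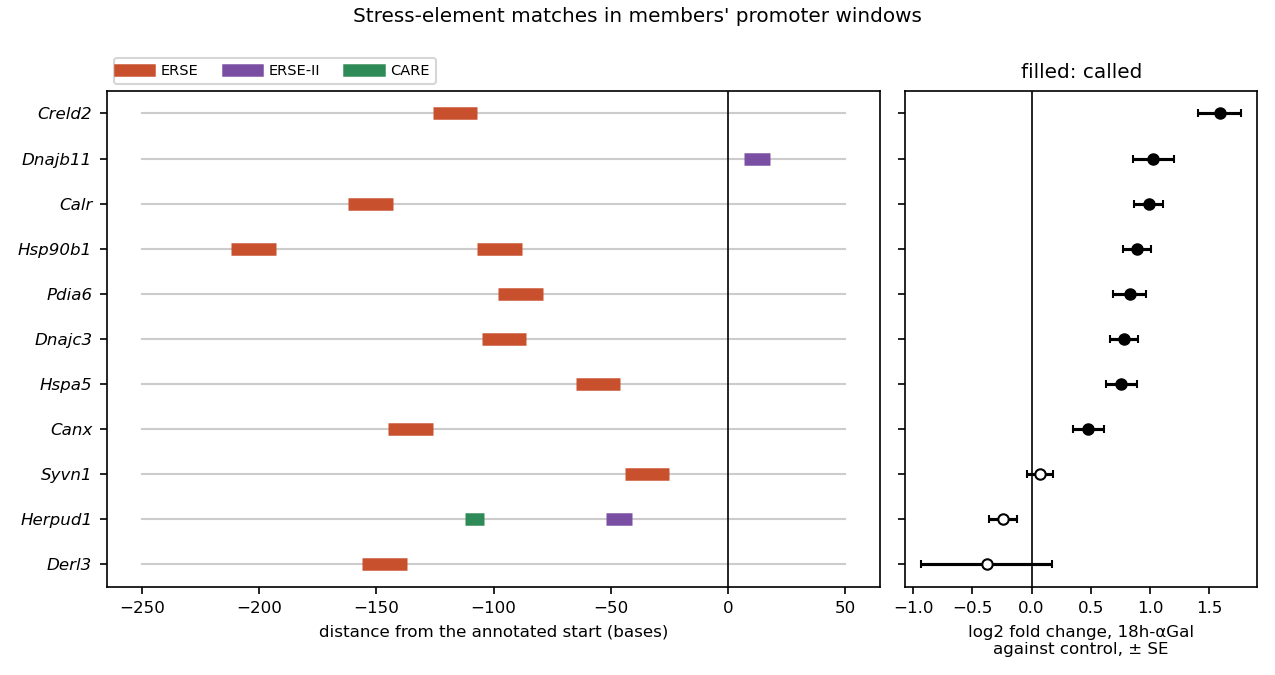
Positions of element matches relative to the annotated start (x axis of the left panel, bases; grey lines are the 300 bases searched) for the 11 members with a match, beside the log2 fold change of 18h-αGal against control with its SE (right panel; filled points had an adjusted p under 0.05, n = 3 mice per group). The 7 called members with an ERSE ranged from 0.48 (Canx) to 1.59 (Creld2), whereas Syvn1, Herpud1 and Derl3 were not called.

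Next, the members were compared between 18h-αGal and control. In 18h-αGal mice 15 members were higher and 1 was lower, that is 42.9% and 2.86% of the 35, whereas 3.27% of the 18933 genes tested were called higher and 2.69% lower (edgeR, adjusted p under 0.05). Normalised counts of 18h-αGal and control mice did not overlap for 16 members that were higher and 1 that was lower, against 11.5% and 12.3% of all genes. The median log2 fold change of the members was 0.32, and that of all genes tested was -0.03. Chaperones and disulfide isomerases made up 13 of the 15. In bulk RNA, a change in the number of cells of one type and a change in RNA per cell cannot be told apart.

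Total counts ranged from 8887861 to 32722293 per library, and the 8 epithelial markers summed to between 78800 and 107000 normalised counts in every library. Plasma and B cells, whose ER is expanded, summed to between 1700 and 2060 over 11 listed genes in all 3 groups, most of it from Sdc1, which epithelial cells express. The defining Jchain, Mzb1 and Igkc had means of 1, 0.833 and 4.5 raw counts over the control and 18h-αGal libraries. Summed Paneth markers overlapped between 18h-αGal (39200 to 83200) and control (18600 to 78900). So did goblet markers (121000 to 344000 against 207000 to 264000), and none of the 18 genes of both lists was called at 18 h. All 10 Paneth markers had positive log2 fold changes at 18 h (median 0.47), whereas 4 goblet markers were positive and 4 negative (median 0.03). At 72 h all 10 Paneth and 7 of 8 goblet markers were above control (medians 0.32 and 0.28), with 0 called. Enteroendocrine markers moved with the members at 18 h, with 4 of 8 higher and sums of 11600 to 18000 against 7720 to 10100 in control. Over all genes, 3.27% were called higher at 18 h and 2.69% lower. At 72 h, however, 5 of the 8 enteroendocrine markers were lower than control. They were the only 5 of the 18933 genes tested that were called lower there (0.0264%). As the lists were chosen with earlier results of these data known, this match is a description and not a test. Of the stem cell markers 1 of 8 was called lower at 18 h, all 8 had negative log2 fold changes (median -1.11), and their sums of 14700 to 44200 did not overlap those of control (47600 to 90000) or of 72h-αGal mice (61400 to 95200). Of the 8 proliferation markers 1 was called higher at 18 h, all 8 had positive log2 fold changes (median 0.39), and sums were 24100 to 32400 against 17300 to 26700 in control. Tuft markers had 2 of 6 called higher (median 0.78), with sums of 4500 to 8400 against 2480 to 4590. Enterocyte markers had 0 of 10 called at 18 h, with sums of 177000 to 287000 against 129000 to 342000 in control. At 72 h their sums were 82700 to 168000, and all 10 were below control (median -0.77) with 0 called. An interferon reference of 12 genes moved most, with 10 of 12 higher at 18 h (sums of 58000 to 63500 against 16100 to 33400) and 0 of 12 called at 72 h. The part of these cell types and of interferon in the members' values was not tested.

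**Figure D2:**
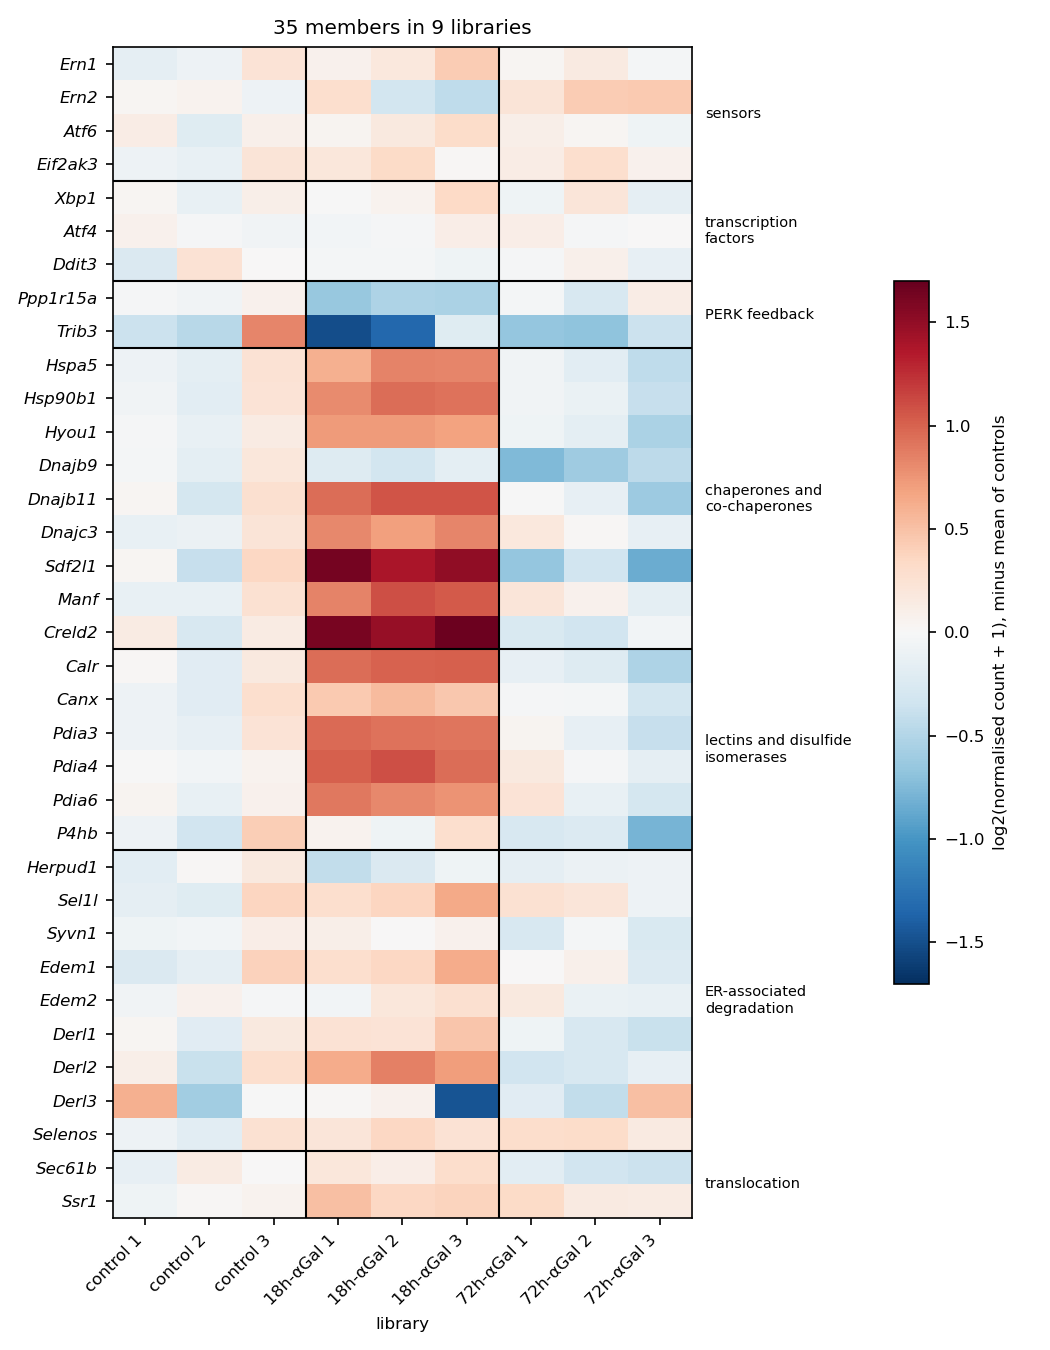
Level of each of the 35 members (rows, grouped by role) in each of the 9 libraries (columns), as log2(normalised count + 1) minus the mean of the 3 control libraries; red is above and blue below that mean. Red rows of the 3 18h-αGal libraries fall in the chaperone and disulfide isomerase groups, where the largest values are those of Creld2 and Sdf2l1, and the 72h-αGal libraries are close to or below the controls there.

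Among chaperones and co-chaperones, 8 of 9 were higher at 18 h. Hspa5 encodes BiP, the Hsp70 chaperone of the ER lumen that also binds the sensors. It had 8670, 8180 and 10900 normalised counts in control mice, 14000, 16500 and 16300 in 18h-αGal mice and 8770, 8110 and 6810 in 72h-αGal mice. The 18h-αGal mice were thus all above the controls, and the 72h-αGal mice fell among or below them. The difference at 18 h was 1.7-fold (log2 fold change 0.76 ± 0.13, SE; adjusted p = 0.00333). Of the exon bases of Hspa5, 44.2% overlap Rabepk on the opposite strand, and Rabepk itself was not called (0.06, adjusted p = 0.896). Hsp90b1 (GRP94), the Hsp90 of the ER, went from 9750 ± 1460 (SD, n = 3) to 17900 ± 918 normalised counts, and Hyou1 (GRP170), which exchanges nucleotide on BiP, from 4870 ± 462 to 7950 ± 115. Their adjusted p-values were 0.000973 and 0.00372.

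The largest differences among the members were those of Creld2 and Sdf2l1. Creld2, an ER protein with EGF-like repeats, had 339, 254 and 338 normalised counts in control mice, 940, 862 and 982 in 18h-αGal mice and 256, 245 and 297 in 72h-αGal mice. At 18 h it was 3.01-fold higher (1.59 ± 0.18 on the log2 scale, adjusted p = 0.000175). Sdf2l1, which works with the co-chaperone ERdj3, had 230, 171 and 285 in control mice, 692, 589 and 640 in 18h-αGal mice and 142, 179 and 124 in 72h-αGal mice, and was 2.84-fold higher at 18 h (1.51 ± 0.23, adjusted p = 0.00172). For both genes the lowest 18h-αGal mouse was far above the highest mouse of either other group. Dnajb11, which encodes ERdj3 itself, had 1140, 906 and 1340 normalised counts in control and 2160, 2350 and 2350 in 18h-αGal mice (2.04-fold, adjusted p = 0.0024). Dnajc3 (P58IPK), a further co-chaperone of BiP, was 1.72-fold higher (adjusted p = 0.00212). Manf, a small ER protein that binds BiP and is secreted under stress, was 2-fold higher (adjusted p = 0.00075), with 32.6% of its exon bases shared with Rbm15b on the same strand. Rbm15b was not called (0.31, adjusted p = 0.211).

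Dnajb9 was the exception among the chaperones. It encodes ERdj4, a co-chaperone of BiP that is known as a target of spliced XBP1 and as a brake on IRE1. Its normalised counts were 2150, 1960 and 2510 in control, 1890, 1770 and 1960 in 18h-αGal and 1300, 1450 and 1610 in 72h-αGal mice. At 18 h its log2 fold change was -0.23 ± 0.13 (adjusted p = 0.335). The 3 72h-αGal mice lay below every control and every 18h-αGal mouse, but the difference from control was not called over all genes (-0.58 ± 0.13, unadjusted p = 0.000336, adjusted p = 0.373).

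Lectin chaperones and disulfide isomerases followed the chaperones, with 5 of 6 higher at 18 h. Calr (calreticulin), which holds monoglucosylated glycoproteins until they fold, had 14200, 12300 and 15800 normalised counts in control, 27200, 28000 and 28300 in 18h-αGal and 12700, 12100 and 9760 in 72h-αGal mice. It was 1.98-fold higher at 18 h (0.99 ± 0.12, adjusted p = 0.00031), with little spread between the treated mice. Pdia4 (ERp72) had 3260, 3150 and 3390 in control, 6630, 6990 and 6320 in 18h-αGal and 3670, 3210 and 2950 in 72h-αGal mice, and had the smallest adjusted p of all members at 18 h (2.05-fold, adjusted p = 0.000114). Pdia3 (ERp57), the isomerase that works with calreticulin and calnexin, was 1.91-fold higher (adjusted p = 0.000854), and Pdia6 was 1.78-fold higher (adjusted p = 0.00269). Exons of Pdia3 overlap genes on the opposite strand over 38.1% of their bases. The smallest of these differences was that of Canx (calnexin), the membrane-bound partner of calreticulin. Its normalised counts were 13700, 12800 and 17700 in control and 19900, 21200 and 20100 in 18h-αGal mice (1.39-fold, adjusted p = 0.0375), and its call was lost without control replicate 1 or 2, without 18h-αGal replicate 1 or 2 and without 72h-αGal replicate 1 or 2, with adjusted p-values of 0.156, 0.137, 0.0809, 0.14, 0.0567 and 0.0545.

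P4hb, the most abundant disulfide isomerase of the set, did not follow them. It had 20700, 17600 and 29400 normalised counts in control, 23000, 20900 and 26900 in 18h-αGal and 18200, 18700 and 12800 in 72h-αGal mice. Control and 18h-αGal mice overlapped throughout, and the log2 fold change was 0.07 ± 0.18 with a 95% interval from -0.33 to 0.47 (adjusted p = 0.879). Control replicate 3 was the highest of all 9 libraries for this gene, and also for the summed enterocyte markers (342000). The 72h-αGal replicate 3 was the lowest for the gene (12800) and for those markers (82700). The part of enterocytes in the values of P4hb was not tested.

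**Figure D3:**
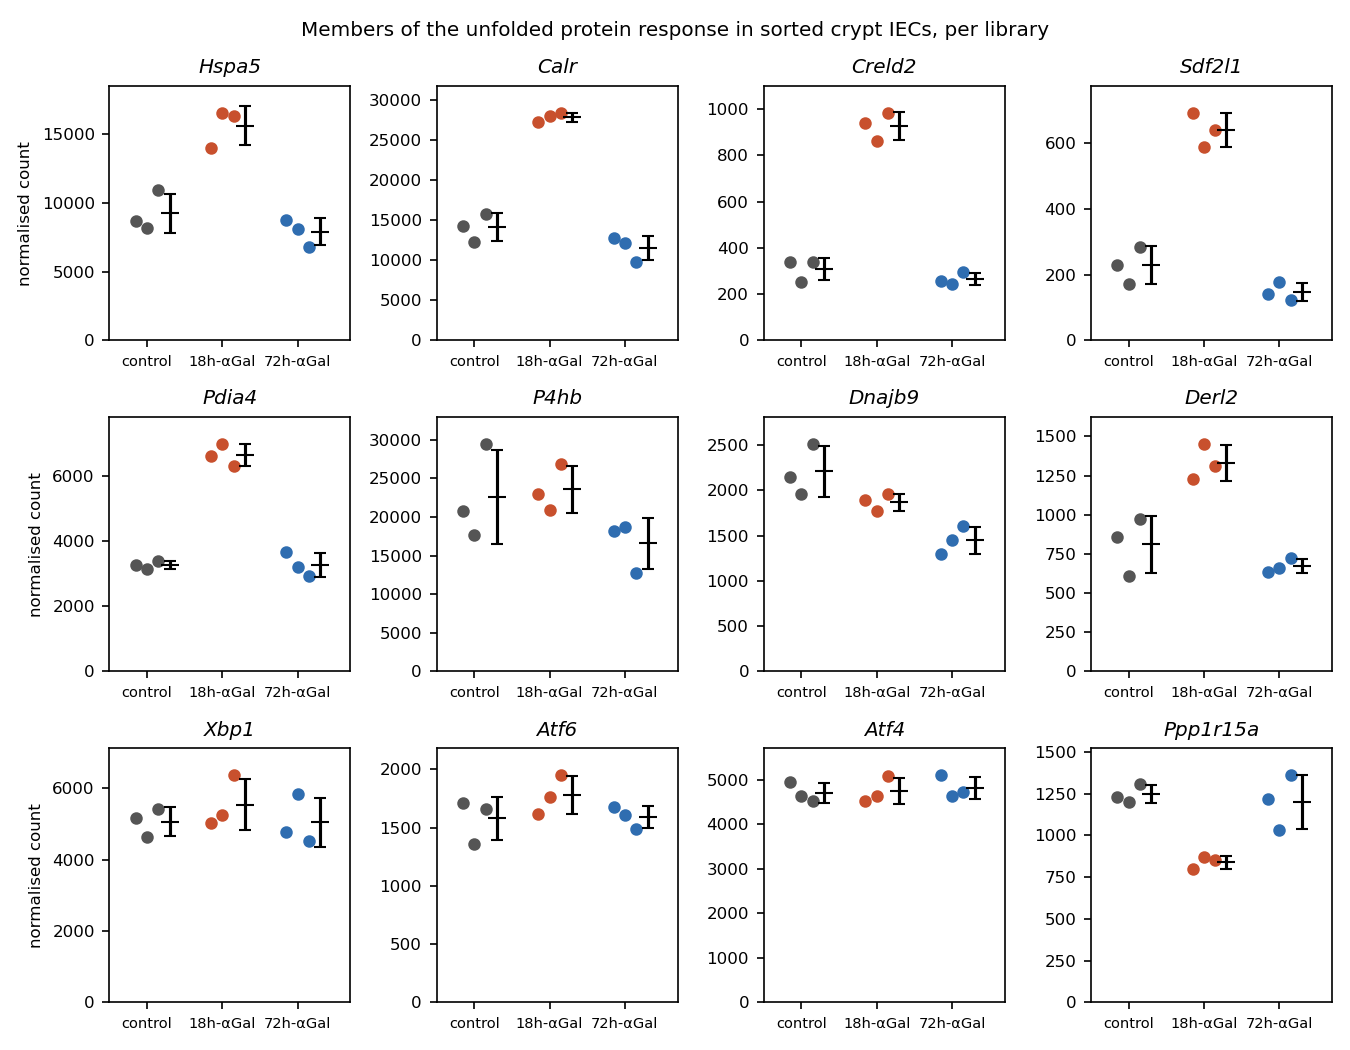
Normalised counts (y axes, starting at 0) of 12 members in each mouse of the control, 18h-αGal and 72h-αGal groups; each point is a library, and black bars give the mean ± SD of 3 mice. Hspa5, Calr, Creld2, Sdf2l1, Pdia4 and Derl2 are higher in the 3 18h-αGal mice than in any other mouse, Ppp1r15a is lower in them than in any other, and P4hb, Xbp1, Atf6 and Atf4 overlap between control and 18h-αGal.

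Genes of ER-associated degradation, the route by which misfolded proteins are drawn from the ER and passed to the proteasome, mostly did not pass the test at 18 h. Only Derl2, a derlin of the retrotranslocation channel, was called higher, 1 of 9. It had 855, 611 and 970 normalised counts in control, 1230, 1450 and 1310 in 18h-αGal and 637, 659 and 721 in 72h-αGal mice (1.65-fold at 18 h, adjusted p = 0.0182). Its call was lost without control replicate 1 or 2 or 18h-αGal replicate 2, with adjusted p-values of 0.0589, 0.0633 and 0.0938. Sel1l, the adaptor of the HRD1 ubiquitin ligase, and Edem1, which trims mannose from misfolded glycoproteins, had log2 fold changes of 0.43 ± 0.15 (adjusted p = 0.117) and 0.42 ± 0.15 (adjusted p = 0.133). Both were called when control replicate 3, their highest control, was left out (0.62, adjusted p = 0.00953 and 0.63, adjusted p = 0.00813). Derl1 was 0.32 ± 0.12 (adjusted p = 0.154), although its groups did not overlap. Syvn1, the HRD1 ligase itself, had 3960, 4010 and 4510 normalised counts in control and 4430, 4160 and 4380 in 18h-αGal mice (log2 fold change 0.07, 95% interval from -0.16 to 0.29). Herpud1, a scaffold of the same ligase and a target of ATF4 and ATF6, had 2390, 2760 and 3040 in control and 2030, 2290 and 2580 in 18h-αGal mice (-0.24 ± 0.12, adjusted p = 0.284). Edem2 and Selenos were not called, with 0.15 and 0.27. Derl3 was expressed at 12 to 124 raw counts per library, and its log2 fold change of -0.38 ± 0.55 was imprecise.

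The translocation channel was represented by 2 members. Ssr1, a subunit of the translocon-associated TRAP complex, had 4160, 4420 and 4550 normalised counts in control, 6230, 5590 and 5700 in 18h-αGal and 5470, 4860 and 4810 in 72h-αGal mice. It was higher at 18 h (1.34-fold, adjusted p = 0.0247), a call lost without control replicate 1 or 2 or 18h-αGal replicate 1 or 2, with adjusted p-values of 0.117, 0.0633, 0.103 and 0.0703. Sec61b, a subunit of the channel itself, was not called (0.20 ± 0.16, adjusted p = 0.517).

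In contrast to the chaperones, none of the 4 sensors and none of the 3 transcription factors was called at 18 h. Xbp1, the target of IRE1, had 5160, 4630 and 5410 normalised counts in control and 5020, 5260 and 6370 in 18h-αGal mice. These groups overlapped, and the log2 fold change was 0.14 ± 0.12 with a 95% interval from -0.13 to 0.40. Reads of Xbp1 cannot be told from those of Ccdc117 over 22% of its exon bases if strand was not used in counting, and Ccdc117 was not called either (-0.07, adjusted p = 0.874). Ern1, which encodes IRE1 alpha, had 2240, 2350 and 2910 normalised counts in control and 2610, 2820 and 3360 in 18h-αGal mice (0.24, interval from -0.03 to 0.51). Atf6 had 1710, 1360 and 1660 in control and 1620, 1760 and 1950 in 18h-αGal mice (0.18, interval from -0.09 to 0.44). Eif2ak3, which encodes PERK, had 608, 588 and 747 in control and 733, 805 and 651 in 18h-αGal mice (0.19, interval from -0.15 to 0.52). For each of these sensors the control and 18h-αGal mice overlapped. Ern2, the IRE1 of mucosal epithelium, had 1150, 1170 and 1060 in control, 1370, 906 and 832 in 18h-αGal and 1310, 1520 and 1530 in 72h-αGal mice. The 72h-αGal mice were all above the controls, but neither this difference (0.38 ± 0.17, adjusted p = 0.827) nor that at 18 h (-0.11 ± 0.17, adjusted p = 0.777) was called.

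Members of the PERK arm did not rise. Atf4 had 4940, 4640 and 4520 normalised counts in control and 4530, 4640 and 5090 in 18h-αGal mice (log2 fold change 0.02, 95% interval from -0.19 to 0.24). Ddit3 (CHOP), the proapoptotic target of ATF4, had 534, 753 and 640 in control and 619, 621 and 603 in 18h-αGal mice (-0.06, interval from -0.40 to 0.29), though 82.4% of its exon bases overlap Mbd6, Mars1 and a predicted gene on the opposite strand. Ppp1r15a (GADD34), which recruits the phosphatase that reverses eIF2 alpha phosphorylation, was the one member that fell. Its normalised counts were 1230, 1200 and 1310 in control, 796, 868 and 855 in 18h-αGal and 1220, 1030 and 1360 in 72h-αGal mice. At 18 h its log2 fold change was -0.56 ± 0.14 (adjusted p = 0.0241). The 18h-αGal mice were below every other mouse, but the call was lost without control replicate 1 or 2 or 18h-αGal replicate 1 or 2, with adjusted p-values of 0.0816, 0.0534, 0.0841 and 0.0789. Trib3, a pseudokinase induced by CHOP and ATF4, had 47, 43.7 and 109 normalised counts in control and 20.8, 23.4 and 52.4 in 18h-αGal mice, from 26 to 80 raw counts per library, and was not called (-1.03 ± 0.55, adjusted p = 0.308).

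**Figure D4:**
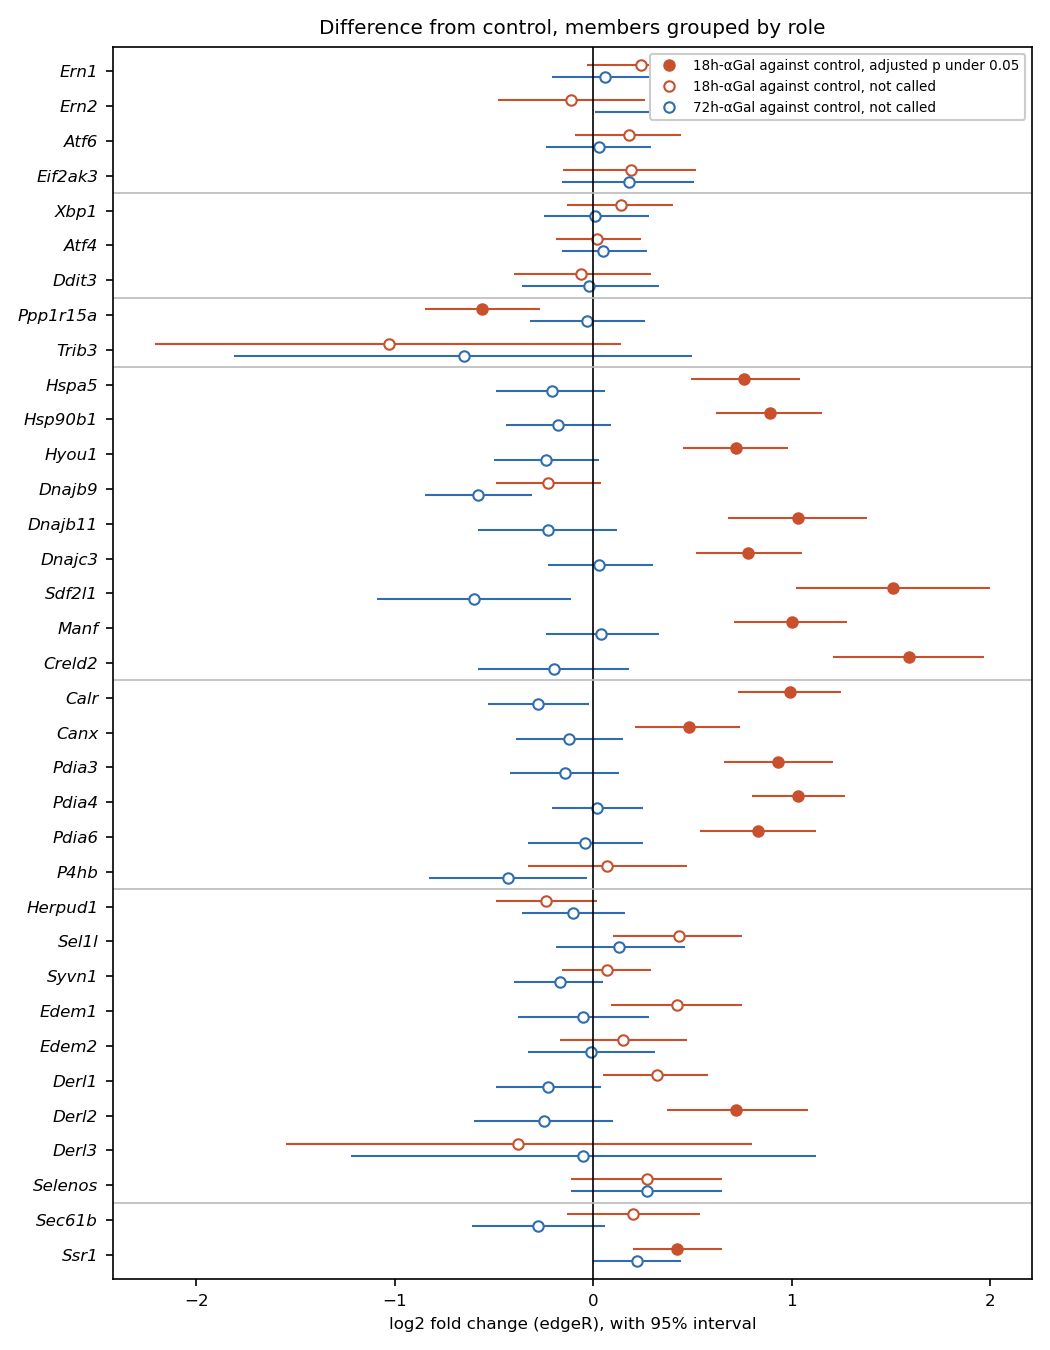
Log2 fold change against control (x axis, edgeR) with its 95% interval for each of the 35 members, grouped by role, at 18 h (orange) and at 72 h (blue) after αGalCer; filled points had an adjusted p under 0.05. Filled orange points reach from 0.42 (Ssr1) to 1.59 (Creld2) on the positive side, with Ppp1r15a at -0.56 on the negative side, and none of the blue points is filled.

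Sorted by arm, 9 of 15 members placed with ATF6 were higher at 18 h (median log2 fold change 0.76), 4 of 12 placed with IRE1 and XBP1 (median 0.28: Dnajb11, Dnajc3, Derl2 and Ssr1) and 0 of 5 of the PERK arm (median -0.06, with Ppp1r15a lower). The background shares for all genes were 3.27% higher and 2.69% lower. Canx and Pdia3, which with P4hb were placed in no arm, were the other 2 called. As many ER chaperone genes respond to both ATF6 and XBP1, the placement is a convention, and no test of one arm against another was made. Within single mice, the median of the ATF6 members relative to the control mean was 0.73, 0.81 and 0.76 in 18h-αGal, -0.02, -0.18 and 0.16 in control and -0.06, -0.11 and -0.18 in 72h-αGal mice on the log2(normalised count + 1) scale. For the IRE1 members it was 0.26, 0.21 and 0.41 in 18h-αGal against -0.04, -0.11 and 0.18 in control mice. Control replicate 3 was the highest control in each of these arms. It was also the library with the fewest counts of all 9. Among the controls it had the largest sum of enterocyte markers (342000) and the smallest of stem cell markers (47600). The part of depth or of cell types in its values was not tested.

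By 72 h the differences from control were not seen. None of the 35 members was called in either direction against control, where 0% of all genes were called higher and 0.0264% lower. DESeq2 and limma also called 0 members. At an unadjusted p under 0.05 stood 2 members above control, Ern2 and Ssr1, and 4 below it, Dnajb9, Sdf2l1, Calr and P4hb, where 2.36% of all genes were above and 3.58% below control at that threshold. Groups did not overlap for 2 members that were higher (Ern2 and Ssr1) and for 2 that were lower (Dnajb9 and Sec61b), against 6.36% and 6.3% of all genes. The median log2 fold change of the members was -0.05, with -0.28 ± 0.12 for Calr and -0.60 ± 0.23 for Sdf2l1 (adjusted p = 0.826 for each).

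The 2 times after αGalCer were then compared directly. Relative to 18h-αGal, 15 members were lower and 1 was higher in 72h-αGal, where 6.04% of all genes were lower and 4.18% higher. The groups did not overlap for 22 members that were lower and 1 that was higher, against 16.3% and 16.6% of all genes. The largest decreases were those of Sdf2l1 (4.31-fold lower, adjusted p = 0.000116) and Creld2 (3.47-fold lower, adjusted p = 5.93e-05), followed by Calr (2.41-fold) and Dnajb11 (2.4-fold). Of the 15 members that were higher at 18 h, Ssr1 alone was not called lower at 72 h than at 18 h (-0.20 ± 0.10, adjusted p = 0.245), and Derl1 was called lower without having been called at 18 h (-0.54 ± 0.13, adjusted p = 0.0129). The call of Derl1 was lost without 72h-αGal replicate 2 or 3, with adjusted p-values of 0.0563 and 0.0743. Ppp1r15a was the member that rose between the times (1.44-fold, adjusted p = 0.0225). It lost this call without 18h-αGal replicate 1 or 2 or 72h-αGal replicate 1 or 3, with adjusted p-values of 0.0735, 0.0623, 0.0734 and 0.137. This comparison and that of 18h-αGal with control share the 18h-αGal mice, so their calls are not independent of each other.

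Levels per length, as normalised counts per kilobase of exon, spread over more than 2 orders of magnitude in control mice. P4hb (6070 ± 1640) and Calr (3700 ± 452) stood at the top, followed by Atf4 (1980 ± 90.4), Canx (1940 ± 336), Hspa5 (1660 ± 258) and Hsp90b1 (1600 ± 240). From Atf4 to Hsp90b1, each gene was within the spread of its neighbor in this order. Trib3 (19.7 ± 10.9) and Derl3 (25 ± 10.3) were lowest. In 18h-αGal mice the order at the top was Calr (7300 ± 146), P4hb (6340 ± 818), Hsp90b1 (2940 ± 150), Hspa5 (2800 ± 253) and Canx (2680 ± 91.1), and Pdia3 (2290 ± 50.1) and Atf4 (2000 ± 124) came next. Exon lengths covered all annotated isoforms, so levels of genes with long unused exons are understated.

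To place the members in their pathway, 139 other genes of ER folding and the UPR were listed, of which 136 had a row and 135 were tested. At 18 h, 32 of them (23.7%) were higher and 2 (1.48%) lower than in control, where 3.27% of all genes were higher and 2.69% lower. N-glycosylation had 8 of 18 higher, among them Slc35b1 (0.72 ± 0.20, adjusted p = 0.0495), and translocation and signal peptide handling had 7 of 18, with Sec61g, the small subunit of the channel, at 1.09 ± 0.23 (adjusted p = 0.0137). ER to Golgi transport had 5 of 20 higher (Lman1, Lman2, Sec23b, Sec13 and Tmed2), ER-associated degradation 2 of 17 (Vcp and Nploc4), oxidative folding and prolyl isomerases 1 of 15 (Agr2), and sensor processing and partners 1 of 14 (Atf6b), all of these named after their values were seen. The count of 32 depended on single libraries and was 8 without control replicate 1, 15 without control replicate 2, 19 without 18h-αGal replicate 1 and 11 without 18h-αGal replicate 2. Calls over all genes also fell in these fits, from 619 higher to 251, 375, 407 and 228, in the same order. The groups nearest to the members of the PERK arm had more genes called higher than lower. Of 30 genes of the integrated stress response, 7 were higher (23.3%) and 2 lower (6.67%), against 3.27% and 2.69% of all genes. In that list 20 log2 fold changes were positive and 10 negative (median 0.24). The 7 higher ones encode enzymes of serine and one-carbon metabolism and aminoacyl-tRNA synthetases: Psat1 had 287, 176 and 140 normalised counts in control and 684, 716 and 477 in 18h-αGal mice (1.63 ± 0.27, adjusted p = 0.00291), Mthfd2 was 1.04 ± 0.22 and Cars1 0.76 ± 0.16. The lower ones were Pck2 (-0.61 ± 0.16, adjusted p = 0.0379) and Atf3, a stress-induced transcription factor with 6360, 7380 and 6600 in control, 4200, 4080 and 4160 in 18h-αGal and 8150, 7590 and 7460 in 72h-αGal mice (-0.70 ± 0.10, adjusted p = 0.00136). Of the other eIF2 alpha kinases, Eif2ak2 (PKR), which is activated by double-stranded RNA and induced by interferon, was higher (0.97 ± 0.16, adjusted p = 0.00285).

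**Figure D5:**
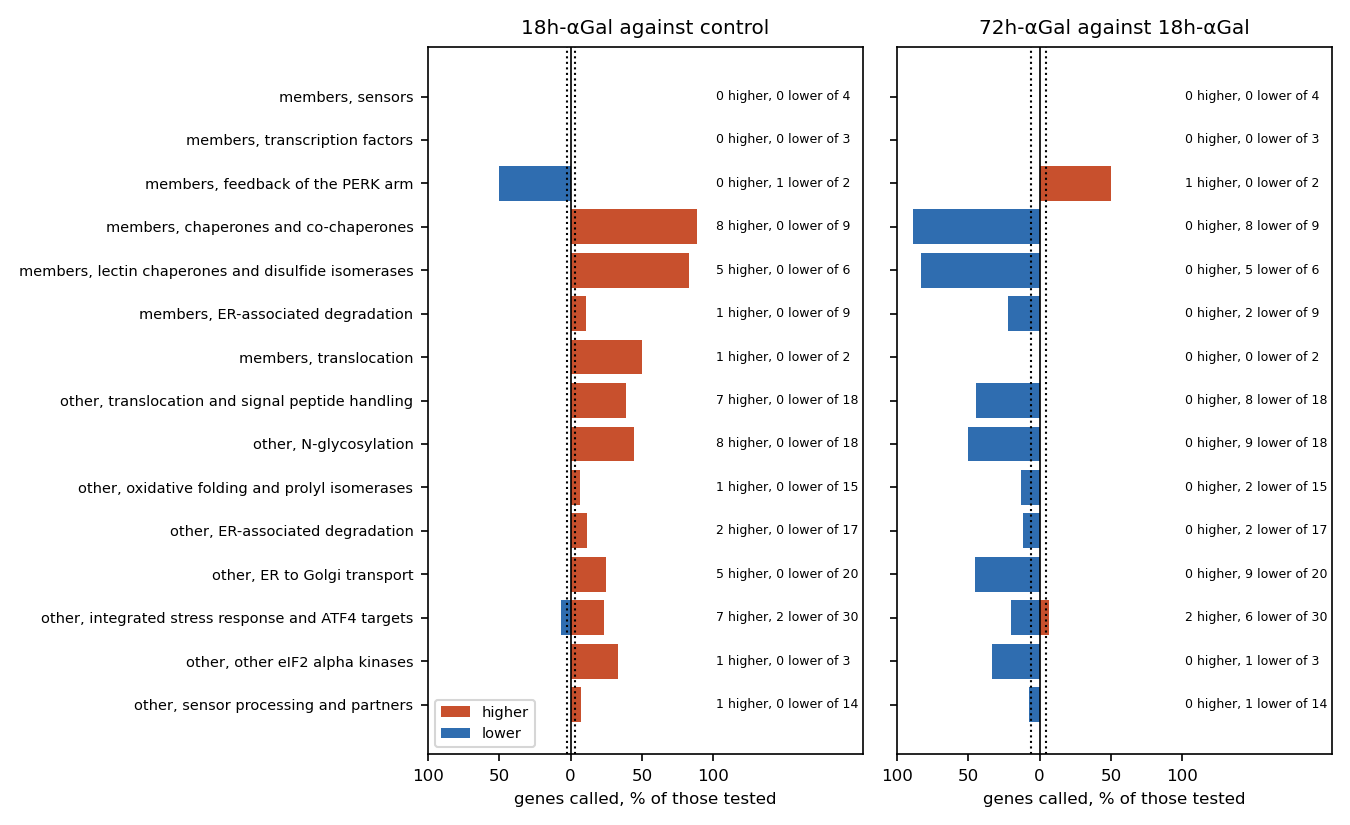
Share of tested genes called higher (orange, to the right) or lower (blue, to the left) in each list of members and of other genes of the pathway, in 18h-αGal against control (left panel) and 72h-αGal against 18h-αGal (right panel); dotted lines give the shares over all 18933 genes tested. Chaperones (8 of 9) and disulfide isomerases (5 of 6) have the longest bars on the left, and the sensors and transcription factors have none. On the right, the chaperones and disulfide isomerases have the longest bars in the lower direction. The translocation members, with 1 of 2 higher on the left, have no bar on the right.

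At 72 h none of the 135 other genes was called against control (3 were above and 3 below it at an unadjusted p under 0.05, where 2.36% and 3.58% of all genes were, and DESeq2 and limma called 0). Against 18h-αGal, 38 were lower (20 without 72h-αGal replicate 3) and 2 higher. Of all genes, 6.04% were lower (1144, or 495 without that library) and 4.18% higher. Among the other genes of the pathway, those that were higher were Atf3 (0.91 ± 0.10) and Pck2 (0.78 ± 0.16). Those with the largest decreases were Psat1 (-1.51 ± 0.27), Eif2ak2 (-1.08 ± 0.16), Shmt2 (-0.99 ± 0.24), Mcfd2 (-0.88 ± 0.18), Gfpt1 (-0.82 ± 0.14) and Slc35b1 (-0.75 ± 0.20).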

How the data were processed

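The authors sequenced ribosomal RNA-depleted, strand-directional libraries (NEBNext Ultra II Directional, Illumina NovaSeq) and mapped reads with HISAT2. The submitters' processing notes also name featureCounts and Subread, with DESeq2 1.42.0. The build is GRCm39 in the study's methods and GRCm38 (mm10) in those notes, and the annotation release and strand setting of counting are not given in the sources used here. The authors deposited raw counts per gene, and a second table whose signal is each count divided by 1 size factor per library, called normalised count here. Printed levels are these values, rounded to 3 significant digits, and tests used the raw counts.

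Genes were kept by filterByExpr (18933 of 29288), scaled by TMM and tested with edgeR 4.0.16 (R 4.3.3; robust quasi-likelihood fit of all 9 libraries, two-sided). Errors of log2 fold changes are SE, and adjusted p-values are Benjamini-Hochberg values over all genes tested, with a gene called at under 0.05. Alternatives used DESeq2 1.42.0, limma 3.58.1 on log2(normalised count + 1), other filters, scaling and samples, and each library left out. The fit was tested on simulated data. Total counts were 8887861 to 32722293 per library.

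Symbols and exon lengths came from GENCODE vM39 (28480 of 29288 identifiers matched, 808 did not), and promoters from RefSeq (GRCm38.p6). Promoters of Manf, Derl1, Hyou1, Atf6 and Ern2 were not in that table, and protein sequences were not analysed here. Members and lists were chosen with earlier results of these data known. All members are named. Other genes of the pathway were named, up to 6 per direction and comparison, by the largest change among those called with a mean of at least 100 raw counts and no overlap between groups. A further 9, the called genes of lists with 5 or fewer calls at 18 h, were named after their values were seen. Each library is a separate mouse, and no batch was labelled.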

Additional observations from a re-analysis of the deposited data

Results flagged for a closer look

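For 16 members the level at 72 h differed from that at 18 h, by the direct test of 72h-αGal against 18h-αGal in edgeR. In that test 6.04% of all genes were lower and 4.18% higher. As the controls were labelled 18 h, treatment and time of sampling cannot be told apart at 72 h. With the same controls on both sides, the difference below is the log2 fold change at 72 h minus that at 18 h. Among chaperones it was -2.11 for Sdf2l1 (1.51 at 18 h and -0.60 at 72 h, adjusted p = 0.000116), -1.79 for Creld2, -1.26 for Dnajb11, -1.06 for Hsp90b1, -0.97 for Hspa5, -0.95 for Hyou1, -0.95 for Manf and -0.75 for Dnajc3. Among lectin chaperones and disulfide isomerases it was -1.27 for Calr (0.99 at 18 h and -0.28 at 72 h, adjusted p = 5.59e-05), -1.08 for Pdia3, -1.01 for Pdia4, -0.87 for Pdia6 and -0.59 for Canx. Of the derlins, Derl2 differed by -0.98 and Derl1 by -0.54. Ppp1r15a differed in the other direction, by 0.53 (-0.56 at 18 h and -0.03 at 72 h, adjusted p = 0.0225). None of the 16 was called at 72 h against control.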

How the results depend on the processing

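With 3 mice per group, a member that was not called may still differ by any amount inside its 95% interval. At 72 h against control, no member and no other gene of the pathway was called under any alternative. Single-member results were counted once under each of 18 alternatives. They covered all members at 18 h, those at an unadjusted p under 0.05 at 72 h, and those called between the times. Of these counts, 964 kept direction and call, 51 lost a call, 4 gained one and 7 changed sign. Many of the 964 were not called in the main fit and could not lose a call. The cause of the changes was not tested. When calls also needed a log2 change of 1 or more in either direction, there were 4 members higher and 0 lower at 18 h, and 7 lower and 0 higher at 72 h against 18 h. The same rule left 3 other genes of the pathway higher and 0 lower at 18 h, and 2 lower and 0 higher between the times. With only the 2 groups compared, 18 other genes were higher and 1 lower at 18 h, and with no filter on low counts 2 members were higher at 72 h than at 18 h. That fit without a filter also called Sel1l and Edem1 at 18 h (adjusted p = 0.0367 and 0.049). DESeq2 and limma each called 15 members higher and 1 lower at 18 h. DESeq2 and the unfiltered fit moved the median of all genes at 18 h to -0.11 and -0.10, where that of the members was 0.31 and 0.33.

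Leaving out each mouse in turn, 12 to 17 members were higher at 18 h (12 without control replicate 1 or 2 or 18h-αGal replicate 2) and 0 to 1 lower. Between the times, 0 to 1 were higher and 14 to 17 lower. Of the other genes, 8 to 35 were higher and 1 to 3 lower at 18 h, and 20 to 45 were lower between the times. Over all genes, 228 to 864 were higher at 18 h and 495 to 1523 lower between the times. Uncalled members near 0 changed sign at 18 h, with ranges of -0.38 to 0.02 for Ern2 (above 0 without 18h-αGal replicate 3), -0.02 to 0.06 for Atf4 (-0.01 without control replicate 3), -0.17 to 0.08 for Ddit3 (above 0 without control replicate 2), -0.07 to 0.30 for P4hb (-0.02 without 18h-αGal replicate 3) and -0.63 to 0.01 for Derl3 (above 0 without control replicate 1).

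Deviations of same-numbered libraries from their group means correlated between -0.13 and 0.10. Without differently numbered libraries beside them, these values cannot decide whether replicate numbers pair the mice. With the number as a replicate block, 13 members were higher and 1 lower at 18 h (Canx and Ssr1 lost their calls, adjusted p = 0.0867 and 0.0611), and 23 other genes were higher and 1 lower. Between the times 15 members were lower and 1 higher under the block.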
